A study of Mus musculus with 6 samples.

Results

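Muscle fibers contract when calcium leaves the sarcoplasmic reticulum (SR) at the triad, the junction of a T tubule with SR sacs on either side. The 10 genes described here encode parts of the SR and the triad. They were taken by name from the count table for their role there, with earlier results of these data known. They are the SR calcium pumps Atp2a1 (SERCA1) and Atp2a2 (SERCA2), the pump inhibitor Sln, the release channel Ryr1, the voltage sensor Cacna1s, the luminal calcium buffers Casq1 and Casq2, and the anchors Trdn, Jph1 and Jph2. All 10 were found among the 31053 genes of the table, and 9 of them, all except Sln, were among the 11633 genes whose expression was high enough to be tested.

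RNA was sequenced from quiescent muscle stem cells (qMuSCs), the resting satellite cells of muscle, which were sorted from hindlimb muscle by FACS for a nuclear GFP driven by Pax7. The WT group held 3 mice of the genotype Pax7nGFP/+;Pax7+/+;Dio2Fl/Fl (c124, c129 and c130), and the cD2KO group held 3 mice that carried Pax7-CreERT2/+ on the same Pax7nGFP/+ and Dio2Fl/Fl background (fl125, fl126 and fl128). All 6 mice were 3 to 4 months old and received tamoxifen, so the groups differed both in the recombinase and in the loss of Dio2, the gene of type 2 deiodinase (D2), and these cannot be told apart here. Cre was driven by Pax7, so that deletion was directed to cells that use Pax7, and recombination in each cell was not measured in these libraries.

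D2 converts the prohormone T4 to active T3 inside the cell. In muscle, T3 acts through nuclear receptors and is known to raise SERCA expression, which is why these genes are read beside the loss of D2. In a fiber, Cacna1s senses depolarization of the T tubule and opens Ryr1 by direct contact, Casq1 and Casq2 hold calcium ready in the SR, the junctophilins hold the membranes together, and the SERCA pumps return the calcium. Atp2a1, Casq1, Ryr1 and Cacna1s are best known from skeletal fibers, while Atp2a2, Casq2 and Jph2 are also used by heart and smooth muscle.

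The region before the start of transcription is shown for 4 members, the 3 that rose and the fast pump Atp2a1, because a thyroid hormone receptor binds DNA at half-sites with the letters AGGTCA. Capitals mark AGGTCA on either strand (TGACCT when read on the strand shown), the E box CANNTG of myogenic factors and a match to the MEF2 motif, none of which overlapped another. Sequences are from RefSeq (GRCm38.p6), run 5′ to 3′ on the strand of the gene and end before the gene's first base in GENCODE.
Jph2, chr2:163397994-163398243, minus strand: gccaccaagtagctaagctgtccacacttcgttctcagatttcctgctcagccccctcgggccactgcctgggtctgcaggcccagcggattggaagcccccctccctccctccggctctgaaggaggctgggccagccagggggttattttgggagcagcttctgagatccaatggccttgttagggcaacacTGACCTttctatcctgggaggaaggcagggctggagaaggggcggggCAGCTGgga
Cacna1s, chr1:136052561-136052749, plus strand: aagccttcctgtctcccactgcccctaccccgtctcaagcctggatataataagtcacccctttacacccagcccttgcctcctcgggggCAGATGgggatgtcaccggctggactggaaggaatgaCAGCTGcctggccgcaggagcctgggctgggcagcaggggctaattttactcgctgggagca
Casq2, chr3:102086165-102086414, plus strand: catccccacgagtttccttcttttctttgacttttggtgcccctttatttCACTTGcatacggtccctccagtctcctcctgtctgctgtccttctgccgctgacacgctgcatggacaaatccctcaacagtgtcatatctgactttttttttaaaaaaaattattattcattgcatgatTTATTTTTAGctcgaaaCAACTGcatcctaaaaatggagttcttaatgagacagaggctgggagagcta
Atp2a1, chr7:126463109-126463323, minus strand: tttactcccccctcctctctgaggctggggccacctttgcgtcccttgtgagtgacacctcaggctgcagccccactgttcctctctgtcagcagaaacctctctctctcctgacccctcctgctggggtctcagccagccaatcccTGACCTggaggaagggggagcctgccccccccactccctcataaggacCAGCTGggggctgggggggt
RefSeq windows, of 250 bases before to 50 after a start, were matched for 6 members (these 4, Ryr1 and Casq1). The motifs were sought in the 250 bases before the start alone, in the members and in all windows. AGGTCA was found in 2 of the 6, and in 14.0% of 32851 windows of the same length. It lay 103 bases before the RefSeq start in Atp2a1. In Jph2 the same half-site lay 56 bases before the RefSeq start of the stretch shown and 76 bases before another RefSeq start. An E box was found in 5 of the 6 and in 66.2% of all windows, and the MEF2 motif in 1 of the 6 (Casq2) and in 2.92%. The half-site repeated with a spacing of 4, the arrangement best known for T3 receptors, was found in 0 of the 6 and in 0.015% of all windows, and a CArG box, the motif of serum response factor, in 0 of the 6 and in 1.47%. Of the called members, Jph2 was thus the one with a half-site in its window and Cacna1s and Casq2 were without one, but a match is a stretch of letters and not a measured binding site.

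The libraries were shallow and similar, with 2184073 to 3897787 counts per mouse, so that 3 counts, the level taken as not told apart from 0 by counting error alone, stood for 0.768 to 1.36 CPM (counts per library of 1e6, with TMM-scaled library sizes). The members together took 0.112 to 0.130% of all counts in WT and 0.161 to 0.197% in cD2KO mice. The library of fl125 stood apart, at 72.6 on the first principal component (45.1% of the variance) where the other 5 lay between -50.7 and 7.52. The targeted gene, Dio2, had 21, 5 and 10 counts in WT and 15, 5 and 1 in cD2KO mice, so the table's counts over the whole gene did not separate the groups (3.56 ± 1.77 against 2.94 ± 3.41 CPM, SD, n = 3 each, two-sided exact permutation test, p = 0.7, where 0.1 is the smallest p that 3 mice against 3 can give). These counts do not show which exons were read. Of the markers of muscle stem cells, the labeled cell type, Pax7 was at 350.4 ± 121 CPM in WT and 485 ± 189 in cD2KO. Chodl was at 739 ± 123 and 894 ± 424, and Myf5 at 31.2 ± 3.96 and 47.0 ± 12.4. Of the 15 MuSC markers 9 had a log2 fold change above 0 and 6 below, and at an unadjusted p under 0.05 in edgeR's quasi-likelihood test 3 were higher (Itga7, Cdh15 and Myf5) and 1 lower (Cxcr4, 43.2 ± 14.9 against 22.7 ± 3.19 CPM). Markers of other cell types were also present in every library, at levels that differed widely between the lists, as given after the members. In every library the summed markers of pericytes and vascular smooth muscle (6451 to 18626 CPM) were above the summed MuSC markers (2330 to 3729 CPM). Levels of the members are thus those of the bulk RNA and were not assigned to a cell type.

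In cD2KO mice 3 of the 9 members tested were higher than in WT mice, and none was lower. Jph2, the junctophilin shared with heart and smooth muscle, was 2.19-fold higher, Cacna1s was 3.41-fold higher from a low level, and Casq2 was 1.50-fold higher. The SERCA pumps, Ryr1, Casq1 and Jph1 had mean levels 1.21 to 1.46 times those of WT that did not pass the test, Trdn was at 0.992 times its WT mean, and Sln was close to the limit of counting. Calls were made at an unadjusted p under 0.05, the line that the study draws, at which 5.34% of all genes tested were higher and 6.62% lower in cD2KO mice. After adjustment over all genes 1 gene in all passed 0.05 (0.00860%), which is not a member, and at an adjusted p under 0.1, passed in the higher direction by 0.284% of all genes, Jph2 was the 1 member called.

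**Figure D1:**
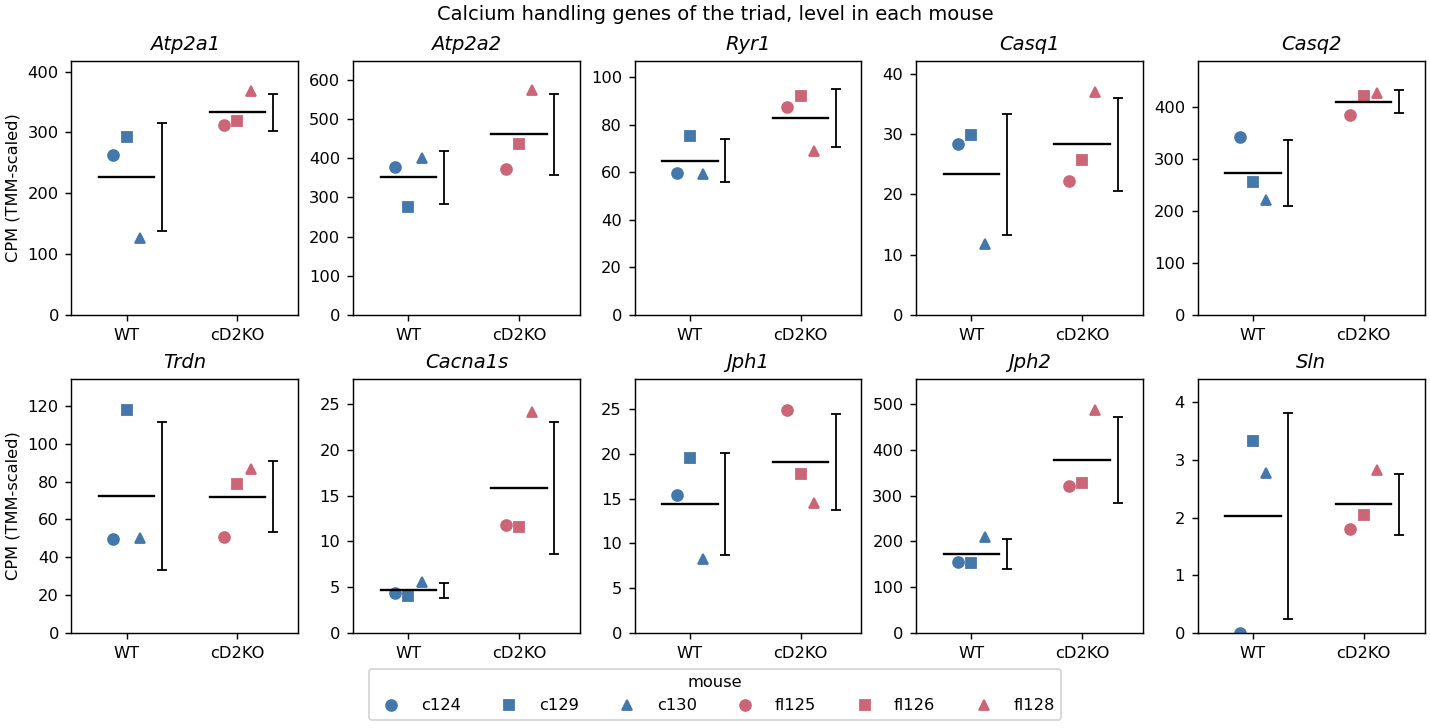
Level of each of the 10 genes in CPM (vertical axes, from 0, a scale of its own for each gene) in the 3 WT (blue) and 3 cD2KO (red) mice, with a symbol per mouse, a line at the group mean and a bar of 1 SD either side. For Atp2a1, Casq2, Cacna1s and Jph2 every red point lies above every blue one, and for the other 6 genes the groups overlap.

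Atp2a1 (ENSMUSG00000030730, chr7:126445858-126463108, minus strand, mm10), the SERCA pump of fast fibers, was at 264, 292 and 126 CPM in WT mice, in the order c124, c129, c130 used throughout, and at 313, 319 and 367 CPM in cD2KO mice, in the order fl125, fl126, fl128. All 3 cD2KO mice were thus above all 3 WT mice, but c130 was far below the other WT mice and set most of the WT spread. The log2 fold change was 0.55 ± 0.27 (SE; 95% interval -0.03 to 1.13), and by edgeR's quasi-likelihood test the unadjusted p was 0.0615 and the adjusted p 0.448. It passed an unadjusted p of 0.05 with limma voom (log2 0.64), with the Wald test of DESeq2 (log2 0.57), with no expression minimum (log2 0.59) and without c129 (log2 0.79), and it did not pass under the other alternatives, being lowest without c130 (log2 0.29). Exons of Atp2a1 share 763 bases with Rabep2 on the opposite strand, which had 301 counts over the 6 mice where Atp2a1 had 4980, and the use of strand in counting is not given in the sources used here.

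Atp2a2 (ENSMUSG00000029467, chr5:122453513-122502225, minus strand), the SERCA pump of slow and cardiac muscle and of most other cells, was at 378, 275 and 400.5 CPM in WT and 372, 436 and 574 in cD2KO mice. The groups overlapped, fl125 lying within the WT range. The log2 fold change was 0.39 ± 0.23 (95% interval -0.09 to 0.88, adjusted p = 0.525, edgeR's quasi-likelihood test), an interval that reaches from a small decrease to nearly 2-fold. Without fl125 it was 0.56, with an unadjusted p of 0.0195. The balance of the pumps was also not told apart between the groups. The log2 ratio of Atp2a2 to Atp2a1 was 0.52, -0.09 and 1.66 in WT and 0.25, 0.45 and 0.64 in cD2KO mice (two-sided exact permutation test, p = 0.8). Sln (ENSMUSG00000042045, chr9:53850164-53854560, plus strand), the small peptide that slows SERCA in muscle, had 0, 9 and 8 counts in WT and 4, 6 and 9 in cD2KO mice, or 2.03 ± 1.78 and 2.23 ± 0.53 CPM (SD, n = 3 each; two-sided exact permutation test, p = 0.9). A difference in Sln was not detectable at this depth.

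Cacna1s (ENSMUSG00000026407, chr1:136052750-136119822, plus strand), the pore and voltage sensor of the skeletal L-type channel, had 17, 11 and 16 counts in WT and 26, 34 and 77 in cD2KO mice. Scaled to library size these were 4.35, 4.06 and 5.54 CPM against 11.8, 11.6 and 24.2 CPM, and the groups did not overlap. The log2 fold change of 1.77 ± 0.46 (95% interval 0.79 to 2.75) had an unadjusted p of 0.0017 and an adjusted p of 0.124 by edgeR's quasi-likelihood test. It was the largest fold change among the members and rested on the fewest counts of those tested. Without fl128, the mouse with 77 counts, it was 1.32 and still passed an unadjusted p of 0.05.

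Ryr1 (ENSMUSG00000030592, chr7:29003344-29125179, minus strand), the release channel that Cacna1s opens, was at 59.7, 75.3 and 59.5 CPM in WT and 87.4, 92.3 and 69.1 in cD2KO mice. Only fl128, the mouse with the highest Cacna1s, fell within the WT range. Its log2 fold change of 0.36 ± 0.21 (95% interval -0.09 to 0.81) did not pass (adjusted p = 0.539, edgeR's quasi-likelihood test), and without c129 it was 0.50 with an unadjusted p of 0.0482. The log2 ratio of Ryr1 to Cacna1s was 3.78, 4.21 and 3.43 in WT and 2.89, 2.99 and 1.51 in cD2KO mice, without overlap, at the smallest p of the exact permutation test (two-sided, p = 0.1). Exons of Ryr1 overlap the antisense gene Gm26604 and those of Cacna1s the antisense gene Gm37759, both with 0 counts in all 6 libraries.

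Casq2 (ENSMUSG00000027861, chr3:102086415-102146514, plus strand), the calsequestrin of slow and cardiac muscle, was at 343, 255 and 221 CPM in WT and 385, 421 and 426 in cD2KO mice. The groups did not overlap, and the cD2KO mice lay close together. Its log2 fold change was 0.59 ± 0.21 (95% interval 0.14 to 1.04), with an unadjusted p of 0.0139 and an adjusted p of 0.263 (edgeR's quasi-likelihood test), and without c130, the lowest mouse, it was 0.48 with an unadjusted p of 0.0772. Casq1 (ENSMUSG00000007122, chr1:172209894-172219868, minus strand), the calsequestrin of fast fibers, was at 28.4, 29.9 and 11.8 CPM in WT and 22.2, 25.7 and 37.1 in cD2KO mice. Here the groups overlapped widely, and the log2 fold change of 0.28 ± 0.36 (95% interval -0.49 to 1.05, adjusted p = 0.832, edgeR's quasi-likelihood test) was -0.01 without c130. The log2 ratio of Casq2 to Casq1 was 3.64 ± 0.57 in WT and 3.89 ± 0.32 in cD2KO mice (SD, n = 3 each; two-sided exact permutation test, p = 0.7).

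Jph2 (ENSMUSG00000017817, chr2:163336242-163397993, minus strand) gave the firmest difference of the set. It was at 156, 153 and 209 CPM in WT and 321, 327 and 486 in cD2KO mice, so that the lowest cD2KO mouse was above the highest WT mouse by more than the range of the WT group. The log2 fold change was 1.13 ± 0.23 (95% interval 0.65 to 1.62), with an unadjusted p of 0.000198 and an adjusted p of 0.0885 by edgeR's quasi-likelihood test. It stayed between 0.91 and 1.32 with each mouse left out, each time at an unadjusted p under 0.05, and without fl125 the adjusted p was 0.0101. Over all the alternatives the adjusted p ran from 7.04e-05 with no expression minimum to 0.397 without c129.

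Jph1 (ENSMUSG00000042686, chr1:16964560-17097889, minus strand), the junctophilin typical of skeletal muscle, did not pass. It was at 15.4, 19.6 and 8.31 CPM in WT and 24.9, 17.8 and 14.4 in cD2KO mice, the groups overlapped, and the log2 fold change was 0.39 ± 0.38 (95% interval -0.42 to 1.21, adjusted p = 0.749, edgeR's quasi-likelihood test). The ratio of Jph2 to Jph1 did not separate the groups either (log2 3.65 ± 0.89 in WT and 4.32 ± 0.70 in cD2KO mice, SD, n = 3 each, two-sided exact permutation test, p = 0.4), so the junctophilins are not shown to differ in response. Trdn (ENSMUSG00000019787, chr10:33080554-33476709, plus strand), which ties the calsequestrins to Ryr1, was at 49.9, 118 and 50.2 CPM in WT and 50.7, 78.7 and 86.7 in cD2KO mice. Its highest value was in the WT mouse c129, and its log2 fold change was -0.00 ± 0.34 (95% interval -0.76 to 0.75, adjusted p = 0.999, edgeR's quasi-likelihood test), or 0.55 without c129.

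**Figure D2:**
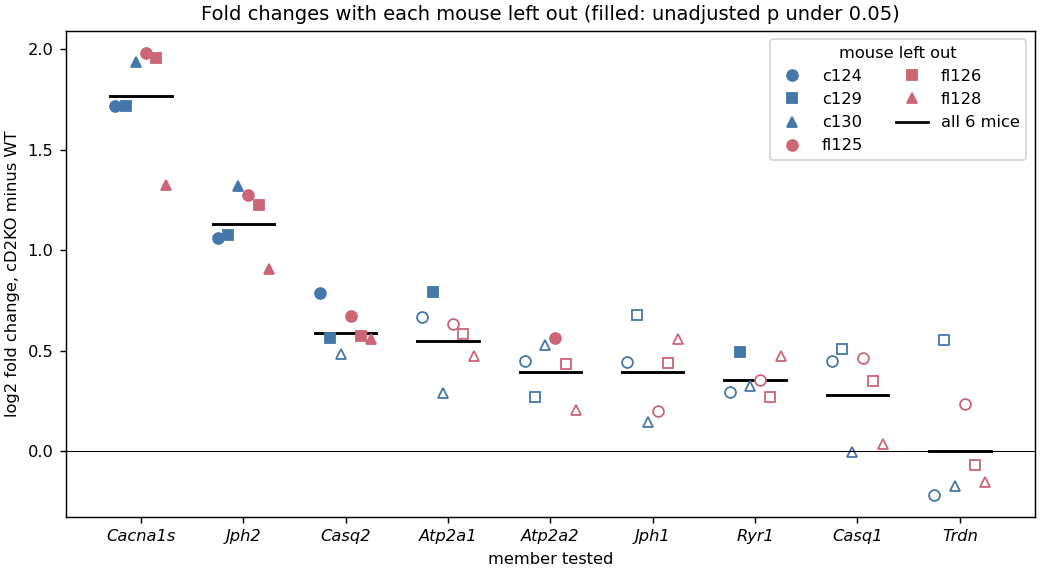
Log2 fold change (cD2KO minus WT, vertical axis) of each of the 9 members tested, with all 6 mice (black line) and with each mouse left out in turn (symbols, blue for WT and red for cD2KO mice; filled symbols had an unadjusted p under 0.05). Cacna1s and Jph2 are filled throughout, Casq2 is open without c130 alone, and Casq1 and Trdn reach 0 or cross it.

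As a set, 3 of the 9 members tested were called higher, beside the 5.34% of all genes given above, and 8 of 9 had a log2 fold change above 0, beside 48.1% of all genes. The median was 0.39, against -0.02 over all genes. In 4 of the 9 all cD2KO mice were above all WT mice, which held for 8.05% of all genes, and in 0 of the 9 they were all below. Groups without overlap in either direction made up 18.1% of all genes. The members were chosen with earlier results of these data known, so these shares describe them and are no independent test. Summed over the members, WT mice held 1095 to 1298 CPM and cD2KO mice 1589 to 2089 CPM. At an adjusted p under 0.05, edgeR called 0 of the 9, limma voom 0 and DESeq2 2 (Jph2, adjusted p = 0.00115, and Cacna1s, adjusted p = 0.0314). Without fl125 edgeR also called Jph2 and Cacna1s (adjusted p = 0.0429), of 293 genes in all.

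Per kilobase of exon, the scale on which levels of different genes may be set side by side, Casq2 was the most abundant member in WT mice at 99.8 ± 23.1 CPM per kb, followed by Atp2a1 at 65.4 ± 25.5, Atp2a2 at 57.7 ± 10.99 and Jph2 at 40.6 ± 7.49 (SD, n = 3). Neighbours among these 4 overlapped between mice, and a gap separated them from Casq1 at 11.98 ± 5.16 and Trdn at 7.77 ± 4.18. Ryr1 at 2.97 ± 0.42, Jph1 at 2.88 ± 1.14, Sln at 1.54 ± 1.35 and Cacna1s at 0.71 ± 0.12 followed, each overlapping its neighbour. In cD2KO mice Casq2 was clear of the rest at 150.1 ± 8.22 CPM per kb, and Jph2 was at 88.8 ± 22.1, next to Atp2a1 at 95.8 ± 8.61. The order thus placed Casq2 far above Casq1 and Jph2 far above Jph1 in both groups. It holds only if counts grow with exon length, and whether the sequencing service read whole transcripts or their ends is not given in the sources used here.

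The wider machinery was read from 7 lists of 84 further genes for calcium release, voltage-gated channels, pumps, the SR lumen and membrane, T tubules, store-operated and plasma membrane transport, and calcium-dependent signalling. Of the 75 tested, 16 were higher and 4 lower in cD2KO mice, with a median log2 fold change of 0.25 (-0.02 over all genes) and 62.7% above 0 (48.1% over all genes). The called shares over all genes were 5.34% higher and 6.62% lower, as above, and 4 of 75 is no larger than the latter. These lists too were chosen with earlier results of these data known. Higher genes were found in every list: 2 of 12 release channels and partners, 2 of 10 channel subunits, 2 of 3 pumps and pump regulators, 3 of 12 SR lumen and membrane genes (1 lower), 2 of 9 T tubule and triad genes (1 lower), 2 of 14 transport genes and 3 of 15 signalling genes (2 lower). All 10 channel subunits and adaptors tested had a log2 fold change above 0. None of the 75 passed an adjusted p of 0.05 by edgeR, where DESeq2 passed 6.

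Of the pumps and their regulators, Atp2a3 (SERCA3), the pump of blood and endothelial cells among others, was at 53.8, 68.7 and 59.2 CPM in WT and 119, 123 and 112 in cD2KO mice. It was higher without overlap (log2 0.97 ± 0.19, adjusted p = 0.0885, edgeR's quasi-likelihood test), and whether it differed from SERCA1 and SERCA2 in this was not tested. Pln, the phospholamban that restrains SERCA2 in heart, slow and smooth muscle, was at 191, 142 and 215 CPM in WT and 270.4, 315 and 461 in cD2KO mice (log2 0.93 ± 0.24, adjusted p = 0.124). In the SR membrane, Jsrp1 (JP-45), which binds both Cacna1s and calsequestrin, was at 90.1, 74.6 and 90.3 CPM in WT and 166, 167 and 160.5 in cD2KO mice (log2 0.95 ± 0.19, adjusted p = 0.0885). Both genes were again higher without overlap.

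Speg, a kinase of the triad and of smooth muscle, was at 52.8 ± 11.1 CPM in WT and 99.6 ± 13.0 in cD2KO mice (SD, n = 3 each; log2 0.91, adjusted p = 0.102, edgeR's quasi-likelihood test). Nfatc4, a transcription factor activated through calcineurin, was at 46.0 ± 5.80 and 92.8 ± 15.1 CPM (log2 1.01, adjusted p = 0.0902). The 4 lower genes were S100a4, a calcium-binding protein of motile and stromal cells, at 518 ± 80.1 and 330 ± 54.7 CPM (log2 -0.65, adjusted p = 0.206), Nfatc2, a factor best known from T cells, at 50.5 ± 16.9 and 27.8 ± 5.86 CPM (log2 -0.85, adjusted p = 0.26), Hspa5, the chaperone BiP (log2 -0.49, adjusted p = 0.411), and Dnm2, a dynamin of membrane scission (log2 -0.47, adjusted p = 0.415). The calls of Hspa5 and Dnm2 lay just under an unadjusted p of 0.05 (0.0471 and 0.0483) and held in 1 and 0 of the 6 fits with a mouse left out, that of Nfatc2 in 4 and that of S100a4 in 5. The 5 higher genes held in all 6.

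**Figure D3:**
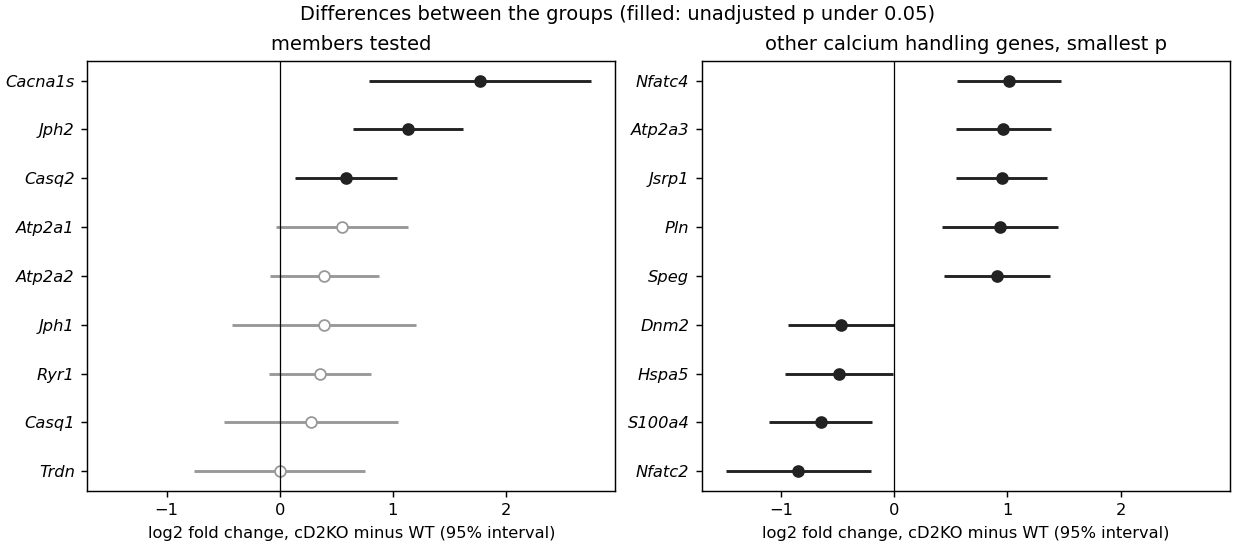
Log2 fold change (cD2KO minus WT, horizontal axis) with its 95% interval for the 9 members tested (left) and for the 9 other calcium handling genes with the smallest p, 5 higher and 4 lower (right); filled points had an unadjusted p under 0.05. Among the members the intervals of Cacna1s, Jph2 and Casq2 lie above 0, and the other 6 include 0.

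Other genes that T3 is known to raise were read beside the pumps. Of 10 listed, 7 were tested, and 1 was higher and 0 lower, beside 5.34% higher and 6.62% lower over all genes. Of the 7, 3 had a log2 fold change above 0 and 4 below, with a median of -0.08. Summed over the list, WT mice held 649 to 758 CPM and cD2KO mice 760 to 772 CPM, a narrow gap without overlap (two-sided exact permutation test, p = 0.1). The 1 called was Slc2a4 (GLUT4), the insulin-dependent glucose transporter of muscle and fat, at 111, 126 and 123 CPM in WT and 167, 177 and 288 in cD2KO mice (log2 0.82, adjusted p = 0.146, edgeR's quasi-likelihood test). Klf9, a direct target of T3 receptors in many cells, was at 499.9 ± 40.2 and 472 ± 64.9 CPM (log2 -0.08, adjusted p = 0.919).

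Genes of this set are used by fibers and by the vessel wall as well as by the stem cell lineage, so marker lists of those cells are given beside them. Markers of fast fibers, Acta1, Tnnc2 and Myl1 highest among them, summed to 3243 to 6421 CPM in WT and 5385 to 10285 CPM in cD2KO mice (two-sided exact permutation test, p = 0.3). All 18 (Pvalb is also in the signalling list) were tested, 4 were higher and 18 had a log2 fold change above 0, with a median of 0.51. Acta1, the actin of skeletal fibers, was at 950 ± 433 CPM in WT and 1517 ± 528 in cD2KO mice. Markers of pericytes and vascular smooth muscle (mural cells) summed to 6451 to 10535 CPM in WT and 12698 to 18626 CPM in cD2KO mice (two-sided exact permutation test, p = 0.1), without overlap. Of these 14 markers 7 were higher and 0 lower, and 10 had a log2 fold change above 0 and 4 below (median 0.53). Acta2 was at 2658 ± 1212 CPM in WT and 5973 ± 1766 in cD2KO mice, and Myh11 at 2179 ± 227 and 4347 ± 1560 CPM. Rgs5, a marker of pericytes, was at 1456 ± 600.4 and 1460 ± 767 CPM.

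Markers of slow fibers summed to 197 to 312 CPM in WT and 249 to 330.4 CPM in cD2KO mice. The sum was led by Tpm3, which was lower (142 ± 28.0 against 90.5 ± 3.98 CPM), while 4 of the 8 markers were higher, 7 had a log2 fold change above 0 and the median was 0.71. Markers of MuSCs summed to 2330 to 2909 and 2443 to 3729 CPM, and those of differentiating myoblasts to 573 to 660.1 and 682 to 864 CPM, with 1 of 8 higher and 0 lower. Markers of immune cells went the other way, at 4383 to 8062 CPM in WT and 220 to 2867 CPM in cD2KO mice. The sums did not overlap (two-sided exact permutation test, p = 0.1), and fl125 was the lowest at 220 CPM. Of 14 tested 4 were lower, 14 had a log2 fold change below 0, and the median was -1.88. Endothelial markers were at 304 to 431 CPM in WT and 250.4 to 314 CPM in cD2KO mice, with 6 of 11 lower, and markers of fibroadipogenic progenitors at 3967 to 6423 and 2429 to 5194 CPM, with 3 of 9 lower. No marker list was at or near 0, and in bulk RNA fewer cells of a type and less RNA per cell cannot be told apart. The part of these cells in the differences of the members was not tested.

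**Figure D4:**
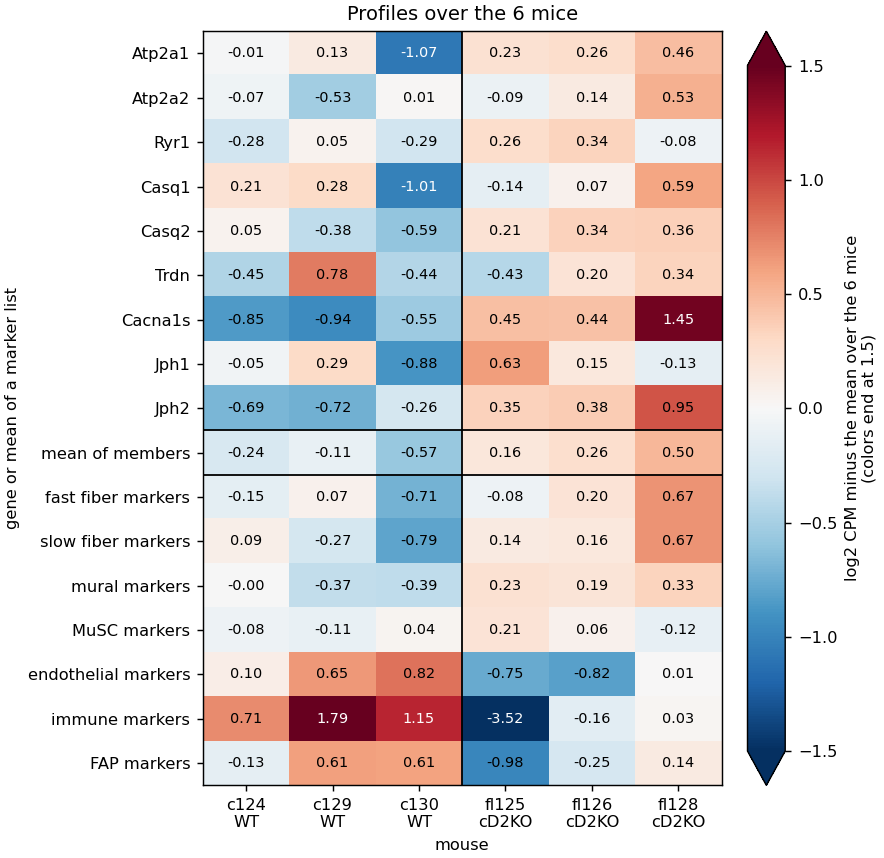
Log2 CPM in each mouse (columns) minus the mean over the 6 mice. Rows are the 9 members tested, their mean, and the mean of each marker list except that of differentiating myoblasts. Red marks higher and blue lower values (colors end at 1.5), with the number printed in each cell. The mean of the members runs from -0.57 in c130 to 0.50 in fl128. The fast fiber, slow fiber and mural lists have the same lowest and highest mouse, and the immune list runs from -3.52 in fl125 to 1.79 in c129.

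The members did not follow a common course over the mice. Likeness over 6 mice was measured as the root mean square (RMS) distance between a member's centred log2 profile and that of a marker list. The list of differentiating myoblasts was not among those compared, and the comparison was chosen after the values had been seen. Atp2a1, Casq1 and Trdn lay nearest to the fast fiber list, at 0.22, 0.22 and 0.39. Atp2a1 and Casq1 shared its lowest mouse, c130 (-1.07 and -1.01, where the list had -0.71), and its highest, fl128. These were also the lowest and highest mice of the slow fiber and mural lists. Casq2, Atp2a2, Jph2 and Jph1 lay nearest to the mural list, Casq2 most closely of all at 0.10 and the others at 0.24, 0.42 and 0.42. The next list was nearly as close for some members, whose place is thus not resolved. Jph1 was at 0.45 from the MuSC, slow and fast fiber lists, Jph2 at 0.46 from the slow fiber list and Atp2a1 at 0.23 from the same list. For Trdn and Atp2a2 the next list was further, at 0.54 and 0.34. Ryr1 lay nearest to the MuSC list at 0.21. Cacna1s was far from every list compared, at 0.60 from the slow fiber list, 0.64 from the mural and 0.64 from the fast fiber list. These distances describe 6 libraries and include the difference between the groups.

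Set against the summed mural markers of the same mouse, Jph2 was at 14.8, 23.7 and 25.9 CPM per 1000 CPM of markers in WT and 25.2, 23.8 and 26.1 in cD2KO mice, with overlap (two-sided exact permutation test, p = 0.4). Against fast fiber markers it was at 40.1 ± 21.6 and 53.0 ± 6.16 CPM per 1000 (SD, n = 3 each; two-sided exact permutation test, p = 0.4), and against MuSC markers at 65.0 ± 7.35 and 132 ± 59.6 without overlap (two-sided exact permutation test, p = 0.1). Casq2 overlapped between the groups against all 3 lists. Cacna1s was higher without overlap against all 3, at 0.58 ± 0.14 and 1.02 ± 0.24 CPM per 1000 CPM of mural markers and at 1.08 ± 0.56 and 2.13 ± 0.25 per 1000 of fast fiber markers (two-sided exact permutation tests, p = 0.1 each). The ratio of Atp2a2 to mural markers was lower without overlap, at 42.7 ± 6.87 and 30.7 ± 1.26 per 1000 (two-sided exact permutation test, p = 0.1). The level of Atp2a2 itself was not lower. Its mean in cD2KO mice was 1.31 times that of WT, while the mural sum it was divided by was 1.80 times that of WT. Atp2a1 overlapped against all 3 lists. Counted against mural or fast fiber markers, the groups overlapped for Jph2 and Casq2. They did not overlap for Cacna1s, whose WT values rest on 11 to 17 counts per mouse. Such ratios change with the marker sum as well as with the gene, and the part of these cells in the differences was not tested.

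**Figure D5:**
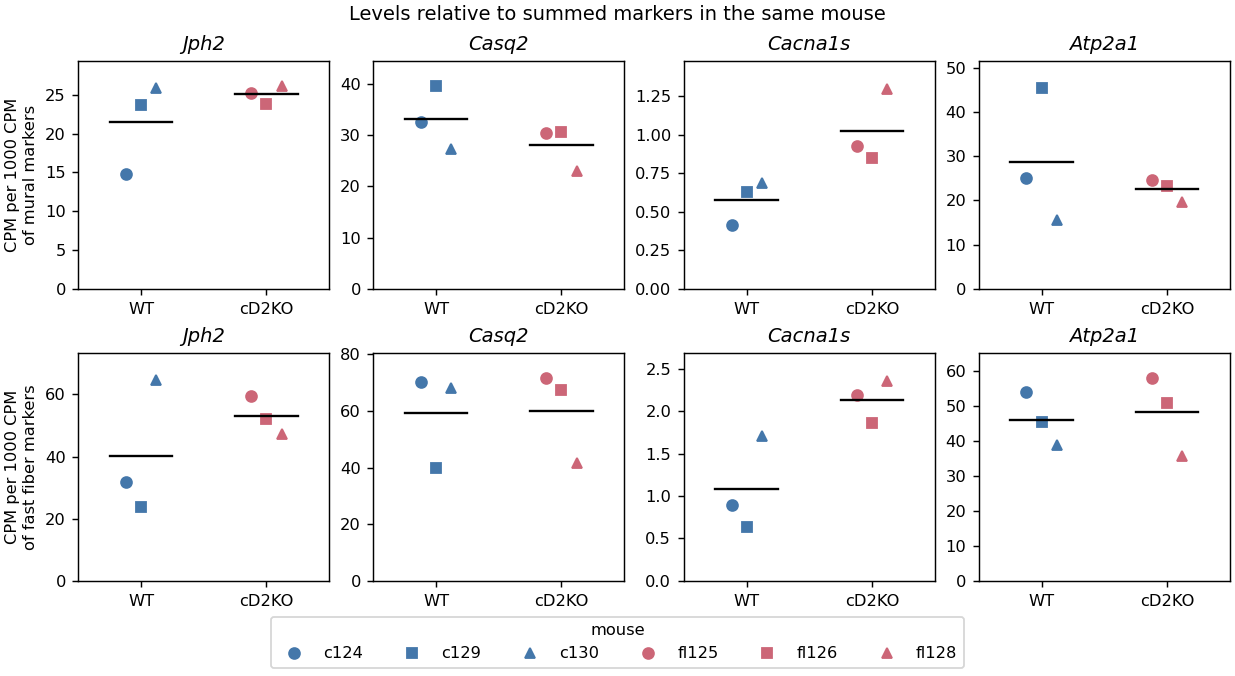
Levels of Jph2, Casq2, Cacna1s and Atp2a1 in each mouse, as CPM per 1000 CPM of summed mural markers (top row) and of summed fast fiber markers (bottom row), with a line at the group mean. Blue points are WT and red points cD2KO mice, and Cacna1s is the one of the 4 genes whose groups do not overlap in either row.

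Among all genes tested, the 10 whose centred profile lay closest to the mean profile of the members were Ralgapa2 (RMS 0.065 on the log2 scale over 6 mice), Phtf2, Psmf1, Zbtb11os1, Itpr1, Aig1, 4930523C07Rik, Smim27, Socs5 and B9d1, the last at an RMS of 0.11, where the median over all genes was 0.50. Itpr1, the IP3 receptor that releases calcium from internal stores outside the triad, was the 1 gene of the wider lists among them. It was at 78.1, 86.4 and 72.7 CPM in WT and 122, 117 and 130 in cD2KO mice, without overlap, and was one of the 16 called higher above.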

How the data were processed

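A library was made for each of 3 WT and 3 cD2KO mice from the RNA of sorted qMuSCs (RNeasy Mini Kit, a commercial digital RNA-seq service). Reads were aligned by the authors to mm10 with STAR, and raw counts per gene were deposited, in whole numbers and without normalization. The submitters' processing notes name bcl2fastq, STAR 2.6.0a and HTSeq 0.9.1. The annotation, strand setting and treatment of duplicates are not given in the sources used here. Mice were grouped by the genotype in the labels, and p-values are over mice.

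Genes were kept if their mean count, scaled by DESeq2, exceeded 10, the study's own minimum. Counts were scaled by TMM, and groups were compared by edgeR's quasi-likelihood test (version 4.0.16, R 4.3.3, robust, all 6 mice, no covariate), with Benjamini-Hochberg adjustment over all genes tested. Log2 CPM had a prior count of 2. Symbols, coordinates and exon lengths came from GENCODE M21, which held 31011 of the 31053 identifiers. Of the 84 wider genes 82 were found. The code was tested on simulated data.

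Named genes are the 10 members, those of the wider lists that passed (5 at most per direction, smallest p first), the 10 nearest profiles, leading marker genes and Dio2. Myf5, Itga7, Cdh15, Cxcr4, Slc2a4, Klf9 and the comparisons with marker levels and profiles were chosen after the values were seen. Members and lists were chosen with earlier results of these data known. Alternatives were other size factors (DESeq2, upper quartile, totals), filterByExpr, a minimum of 50 or none, DESeq2 1.42.0, limma 3.58.1 voom, non-robust estimation, adjusted thresholds, exon length and leaving out each mouse.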

Additional observations from a re-analysis of the deposited data

How the results depend on the processing

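Of the 3 members called higher, 0 remained at an adjusted p under 0.05 and 1 under 0.1. With each mouse left out the number called higher ran from 2 (without c130) to 5 (without c129, which added Atp2a1 and Ryr1). The number lower was 0 throughout, and the median log2 fold change of the members ran from 0.325 to 0.564. Among the wider genes, the number higher ran from 12 to 18 and the number lower from 1 (without c129) to 4, while 2 were lower with DESeq2 size factors, 2 with limma voom and 6 with total counts only, and 22 were higher and 5 lower with no minimum. The log2 ratio of summed fast fiber markers ran from 0.264 (without fl128) to 0.847, and that of mural markers from 0.661 to 1.05. Ordered per kb of exon, 2 of the 10 members kept their place in the order by CPM. Casq1 turned to -0.0068 without c130 and reached 0.508 without c129. Trdn turned to 0.0193 with DESeq2 size factors, 0.0151 with the DESeq2 test, 0.041 with no minimum and 0.12 with voom, and ran from -0.22 to 0.55 with a mouse left out. The causes were not tested. Over all genes, 1 passed an adjusted p of 0.05 with edgeR, 276 with DESeq2, 510 with no minimum and 293 without fl125. No paired analysis was possible because the labels give mouse names and no shared replicate numbers. Depth limits Sln, and the 11 to 77 counts of Cacna1s.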
